A study of Mus musculus with 4 samples.

Results

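The interferon-gamma inducible GTPases described here are 10 genes of the mouse aorta, the guanylate-binding protein (GBP) genes Gbp2, Gbp3, Gbp4, Gbp5, Gbp6 and Gbp7 and the immunity-related GTPase (IRG) genes Iigp1, Igtp, Irgm1 and Irgm2. They were taken by gene name from one-colour (Cy3) Agilent expression arrays and were 10 of the 37074 gene names on the array, read by 15 of its 56605 non-control probes. The measured groups were abdominal aortic tissue labelled SR-A1-/- (arrays K4 and K5) and abdominal aortic tissue labelled wild type (arrays W2 and W3), 2 arrays in each. All 4 arrays were of male mice 12 weeks old, collected 4 weeks after calcium phosphate (CaPO4), an agent that injures the vessel wall and induces aneurysm, so the wild type group had been injured as well. SR-A1 is the class A scavenger receptor of macrophages, encoded by Msr1. The labels give neither the deleted allele nor the strain, and nothing in them ties an array to its own animal, so each p-value reflects the spread among these 4 samples, which may be technical.

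GBPs and IRG proteins are large GTPases that cells make in quantity when interferon-gamma binds its receptor and activates the kinases Jak1 and Jak2. Promoters of the genes it induces carry gamma-activated sites (GAS) and interferon-stimulated response elements (ISRE), and Irf1 binds the ISRE. The proteins gather on the vacuoles of intracellular bacteria and parasites and help to open them, and several GBPs also promote inflammasome activation. Macrophages make them, and so do other cells of the vessel wall that interferon reaches.

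The genes lie in clusters, and the promoters of those searched hold motifs of the interferon pathway. RefSeq start sites on GRCm38.p6 were used for 7 of the 10 genes, with 8 starts in all. The genes searched were Gbp2, Gbp3 (2 starts), Gbp5, Gbp7, Igtp, Irgm1 and Irgm2. Promoters of Gbp4, Gbp6 and Iigp1 were not searched, so the counts below leave these genes out. In the 250 bases before the start, both strands were searched for the GAS letters TTCNNNGAA, which read the same on either strand, and for the ISRE core letters GAAANNGAA. All 7 genes held an ISRE core in at least 1 promoter and 4 held a GAS match as well (Gbp5, Gbp7, Igtp and Irgm2). Among all 32851 RefSeq mouse promoters of the same length the shares were 7.13% for the ISRE core, 7.02% for GAS and 0.752% for both. A match describes the letters only, and no binding was measured. The sequences of the 3 IRG genes and the 2 GBP genes with the most matches are shown 5′ to 3′ in the direction of transcription, ending at the base before the start, with the matches in capitals. Igtp lies at chr11:58199306-58199555 (plus strand), Irgm2 at chr11:58214727-58214976 (plus), Irgm1 at chr11:48871421-48871670 (minus), Gbp7 at chr3:142530086-142530335 (plus) and Gbp5 at chr3:142496684-142496933 (plus).
Igtp: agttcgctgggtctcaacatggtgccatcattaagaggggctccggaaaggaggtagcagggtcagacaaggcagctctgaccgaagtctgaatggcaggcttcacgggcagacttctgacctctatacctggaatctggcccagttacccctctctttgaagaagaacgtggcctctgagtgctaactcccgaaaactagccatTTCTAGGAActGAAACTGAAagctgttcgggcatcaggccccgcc
Irgm2: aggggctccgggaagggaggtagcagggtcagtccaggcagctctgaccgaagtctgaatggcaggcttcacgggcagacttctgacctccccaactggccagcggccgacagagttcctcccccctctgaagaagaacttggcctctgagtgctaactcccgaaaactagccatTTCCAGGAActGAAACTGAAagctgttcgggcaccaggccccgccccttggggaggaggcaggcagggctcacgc
Irgm1: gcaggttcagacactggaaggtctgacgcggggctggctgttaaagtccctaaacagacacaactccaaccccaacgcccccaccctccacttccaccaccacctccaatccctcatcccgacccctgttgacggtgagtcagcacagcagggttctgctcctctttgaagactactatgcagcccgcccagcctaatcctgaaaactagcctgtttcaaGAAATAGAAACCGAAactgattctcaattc
Gbp7: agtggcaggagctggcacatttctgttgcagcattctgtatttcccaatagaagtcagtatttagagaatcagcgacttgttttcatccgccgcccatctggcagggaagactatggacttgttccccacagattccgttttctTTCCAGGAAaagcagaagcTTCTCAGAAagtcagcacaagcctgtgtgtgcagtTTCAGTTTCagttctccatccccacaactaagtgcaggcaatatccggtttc
Gbp5: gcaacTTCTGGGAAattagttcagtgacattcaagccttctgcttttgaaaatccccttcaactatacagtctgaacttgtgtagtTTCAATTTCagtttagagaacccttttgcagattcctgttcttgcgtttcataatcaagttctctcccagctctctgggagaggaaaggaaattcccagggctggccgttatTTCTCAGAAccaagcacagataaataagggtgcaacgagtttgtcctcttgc

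In Igtp and Irgm2 the same arrangement recurs, a GAS match followed by an ISRE core, at 45 to 37 and 34 to 26 bases before the start of Igtp and at 75 to 67 and 64 to 56 bases before the start of Irgm2. The 2 sequences share an identical run of 55 bases. Irgm1 has 2 ISRE cores that overlap each other, at 30 to 22 and 24 to 16 bases before the start, and no GAS match in this window. Gbp7 and Gbp5 each have 2 GAS matches and 1 ISRE core, on the other strand. No GAS match overlapped an ISRE core in these 5 sequences.

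Signal was taken as log2 of the processed signal minus the 75th percentile of the array, so a value of 0 is a probe as bright as that percentile. The 75th percentile itself was 245 on K4 and 133 on K5, against 132 on W2 and 220 on W3. The brighter arrays were thus K4 and W3, one of each label, and differences are also given within each pair of like signal level, K4 minus W3 and K5 minus W2. The share of probes well above background was 57.6% to 62.6%. Precision is limited by having 4 arrays. Smooth muscle markers were bright on every array, with a median of 6.31 on K4, 6.48 on K5, 7.28 on W2 and 6.87 on W3. White adipocyte markers were not alike, with a median of -1.52 on K5 against 5.75 on K4, 4.96 on W2 and 5.69 on W3. K5 therefore stood apart from the other 3 arrays in the median of these fat markers.

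Msr1, the gene said to be deleted, went against the labels. Its probe at base 624 of the transcript read -1.50 on K4 and -1.38 on K5, against -6.40 on W2 and -2.12 on W3. Its probe at base 3231 read -1.26 and -2.09 on K4 and K5, against -5.30 and -2.10 on W2 and W3. Both probes were well above background on K4, K5 and W3 and not on W2. If the allele left these stretches in place, neither probe would check the labels. Directions are given throughout by label.

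The comparison asked whether the injured aortas labelled SR-A1-/- and wild type differed in GTPase expression. All 10 genes were measured, and their values leaned higher on the arrays labelled SR-A1-/-, by a median log2 difference of 0.49 against -0.0057 over all 22497 genes tested. Of the 10 differences, 8 were positive and 2 negative, between -0.23 for Gbp6 and 0.87 for Iigp1. None of the 10 passed an adjusted p of 0.05 in limma, where 0% of all genes passed, and the lowest adjusted p among them was 0.903, for Igtp. None had an unadjusted p under 0.05 either, against 3.84% of all genes that were higher and 2.45% that were lower at that level. Both arrays labelled SR-A1-/- lay above both labelled wild type for 4 genes (Igtp, Irgm1, Irgm2 and Gbp7), where 16.1% of all genes did so, and 0 genes lay below on both, where 13.7% did. The median of the 10 genes was 1.21 on K4 and 0.89 on K5, against 0.61 on W2 and 0.57 on W3. Without K4 the median difference was 0.23, and without K5 it was 0.74. The count without overlap was 9 without K5, 4 without K4, 5 without W2 and 7 without W3. Over all genes the share for the same arrays was 31.5%, 32.5%, 36.2% and 30.8%. With quantile scaling the count was 7, where 17.7% of all genes lay higher without overlap. With 2 arrays against 2 an exact permutation test of the median cannot go below a two-sided p of 0.33.

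**Figure D1:**
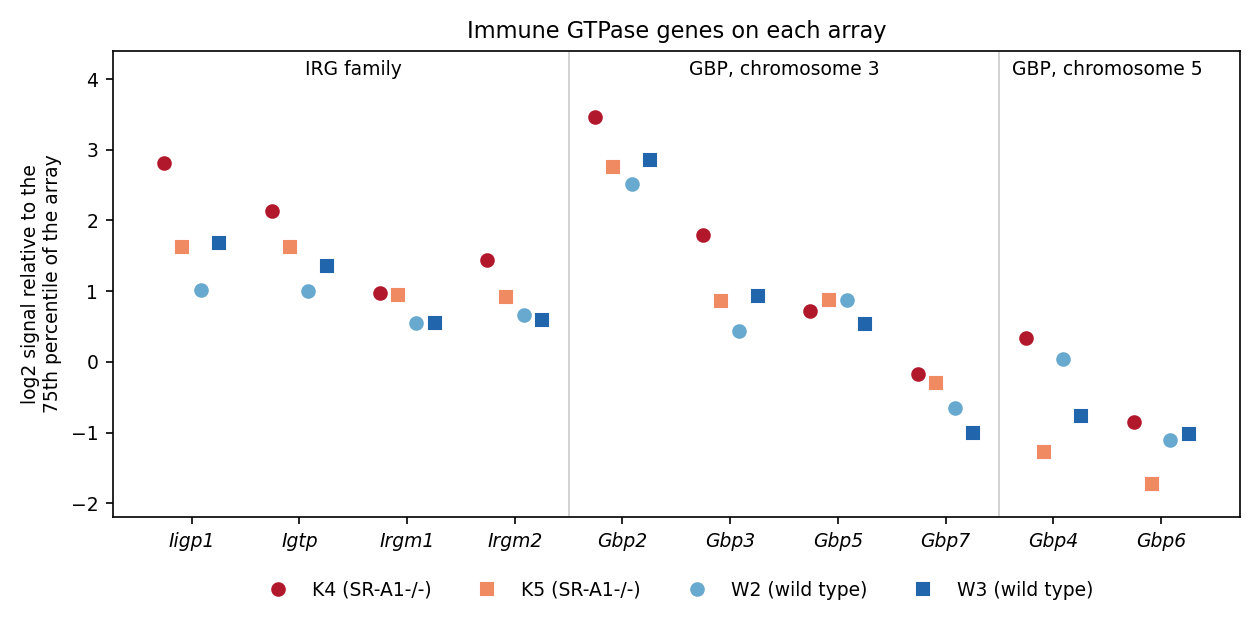
The log2 signal of each gene, relative to the 75th percentile of its array, is plotted for K4 and K5 (labelled SR-A1-/-) and for W2 and W3 (labelled wild type), 1 point for each array. K4 is the highest array for 9 of the 10 genes, and K5 lies below both wild type arrays for Gbp4 and Gbp6.

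The IRG genes gave the more even picture. Igtp (also called Irgm3), which guards cellular membranes against the effector IRG proteins, read 2.13 on K4 and 1.63 on K5, against 1.0 on W2 and 1.36 on W3. Both values labelled SR-A1-/- were above both labelled wild type, a difference of 0.70 ± 0.33 (limma SE, n = 2 arrays in each group) or 1.62-fold. Its limma adjusted p was 0.903. Irgm1, a membrane-bound regulator of the same kind that is also tied to autophagy, read 0.97 and 0.95 on K4 and K5, against 0.54 and 0.55 on W2 and W3. Its arrays within each group were the closest of any of the 10 genes, and the groups did not overlap, at a difference of 0.41 ± 0.27. Irgm2, the regulator beside Igtp on chromosome 11, read 1.44 and 0.91 on K4 and K5, against 0.67 and 0.59 on W2 and W3. Its difference was 0.55 ± 0.32, without overlap, and K4 was the highest array.

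Iigp1 (also called Irga6), the effector that coats parasite vacuoles, was read by a pair of probes that differed widely. Its brighter probe (transcript NM_021792, chromosome 18 at 60552153 to 60552212 on mm9) read 2.81 on K4 and 1.62 on K5, against 1.02 on W2 and 1.68 on W3. K5 lay just under W3, so the groups overlapped, and the difference was 0.87 ± 0.51. Without K4 it was 0.27, and without K5 it was 1.46. Its second probe (clone AK172047, 60538211 to 60538270) read 0.83 and 0.75 on K4 and K5, against -2.59 and -3.00 on W2 and W3, with all 4 arrays well above background. There both arrays labelled SR-A1-/- stood far above both labelled wild type, with processed signals of 434 and 223 on K4 and K5 against 21.9 and 27.5 on W2 and W3. The difference was 3.58 ± 0.30, with an unadjusted p of 7.16e-05 in the limma fit of all probes. Its adjusted p over the 35102 tested probes was 0.0931 and missed the threshold, which 0.00855% of probes passed. The probes lie 13942 bases apart on mm9, and which transcripts each one reads was not tested.

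Few genes had probes so far apart. The difference of 2.72 between the Iigp1 probes was matched or exceeded by 45 of the 7970 genes with several tested probes, or 0.565%, and the median gene had a range of 0.247. When the mean of the probes stood for each gene, Iigp1 differed by 2.23 ± 0.33 with a limma adjusted p of 0.244, its lowest over the alternatives. Irgm1 behaved otherwise, with 3 tested probes of NM_008326 whose differences lay within 0.38 of each other. At base 1849 the difference was 0.41, at base 1784 it was 0.28 ± 0.29, and at base 1286 it was 0.66 ± 0.27. The probe at base 1286 read -1.06 and -1.07 on K4 and K5, against -1.70 and -1.75 on W2 and W3. At base 1784 the values were 0.15 and -0.14 on K4 and K5, against -0.35 and -0.19 on W2 and W3, again without overlap. The remaining Irgm1 probe was well above background on K5 alone and was not tested.

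**Figure D2:**
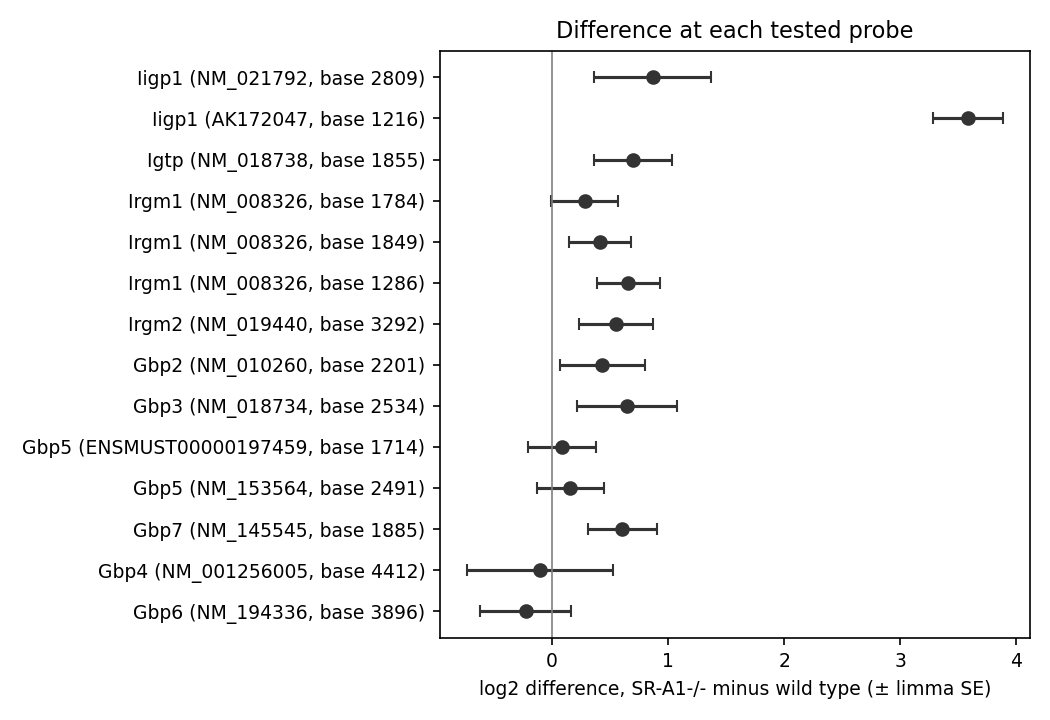
The log2 difference of the arrays labelled SR-A1-/- minus those labelled wild type is plotted for each of the 14 tested probes, with its limma standard error and the base of the transcript at which the probe starts. The second Iigp1 probe, at 3.58, lies apart from the others, which run from -0.23 to 0.87.

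The GBP genes of chromosome 3 were next. Gbp2, which is recruited to vacuoles and bacteria and releases their contents to cytosolic sensors, read 3.47 on K4 and 2.76 on K5, against 2.51 on W2 and 2.85 on W3. The groups overlapped, since K5 lay below W3, and the difference was 0.43 ± 0.37. Gbp3 read 1.79 and 0.86 on K4 and K5, against 0.43 and 0.93 on W2 and W3. It had the same form as Gbp2, with K4 highest and K5 between the wild type arrays, at a difference of 0.64 ± 0.43. Gbp7, which in mouse macrophages helps to assemble the phagocyte oxidase, read -0.17 and -0.29 on K4 and K5, against -0.66 and -1.01 on W2 and W3. It was the single GBP of the 6 without overlap, at 0.61 ± 0.30 or 1.52-fold (limma adjusted p = 0.914).

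Gbp5, a promoter of NLRP3 inflammasome assembly, differed little. Its brighter probe read 0.72 on K4 and 0.87 on K5, against 0.87 on W2 and 0.54 on W3, and the groups overlapped at a difference of 0.09 ± 0.30. The other Gbp5 probe differed by 0.16 ± 0.29. The sign of the small difference was not stable, since it was -0.079 without W3.

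Gbp4 and Gbp6, which lie in the GBP cluster of chromosome 5, were the 2 genes with negative differences. Gbp4 read 0.34 on K4 and -1.27 on K5, against 0.04 on W2 and -0.77 on W3. Gbp6, one of the GBPs linked to control of Listeria and mycobacteria in mouse macrophages, read -0.85 and -1.73 on K4 and K5, against -1.11 and -1.02 on W2 and W3. For both genes K4 was the highest array and K5 the lowest, so the arrays of one label spanned those of the other. The differences were -0.11 ± 0.63 for Gbp4 and -0.23 ± 0.39 for Gbp6. Both were positive without K5, at 0.70 for Gbp4 and 0.21 for Gbp6, and Gbp4 was also positive without W2, at 0.30.

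Set out by family, the IRG genes had a median difference of 0.62, with 3 of 4 not overlapping between groups. The GBP genes had a median of 0.26, with 1 of 6 not overlapping. Within the GBP family the 4 genes of chromosome 3 had a median of 0.52 and the 2 of chromosome 5 a median of -0.17. The difference between families was not tested. Against the 16.1% of all genes that lay higher without overlap, these are counts in a few genes that share regulators and are not replicates of each other.

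The differences were also read within pairs of arrays of like signal level, and the part of signal level in them was not tested. Between the brighter arrays, K4 minus W3, all 10 genes were positive, with a median of 0.81. Between the dimmer arrays, K5 minus W2, 7 of 10 were positive, with a median of 0.31. The 4 IRG genes were positive in both pairs, at 1.13 and 0.60 for Iigp1, 0.77 and 0.63 for Igtp, 0.42 and 0.40 for Irgm1 and 0.86 and 0.24 for Irgm2. Gbp4 differed by 1.10 in the bright pair and by -1.31 in the dim pair, and Gbp6 by 0.17 and -0.62. K4 lay above both wild type arrays for 9 of the 10 genes, where 31.5% of all genes did so. K5 lay above both for 4, where 32.5% of all genes did so, and below both for 2, where 34.0% did. With signal level as a block in limma, 2 of the 10 genes had an unadjusted p under 0.05, where 12.5% of all genes did under that fit, and the lowest adjusted p was 0.341, again for Igtp.

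**Figure D3:**
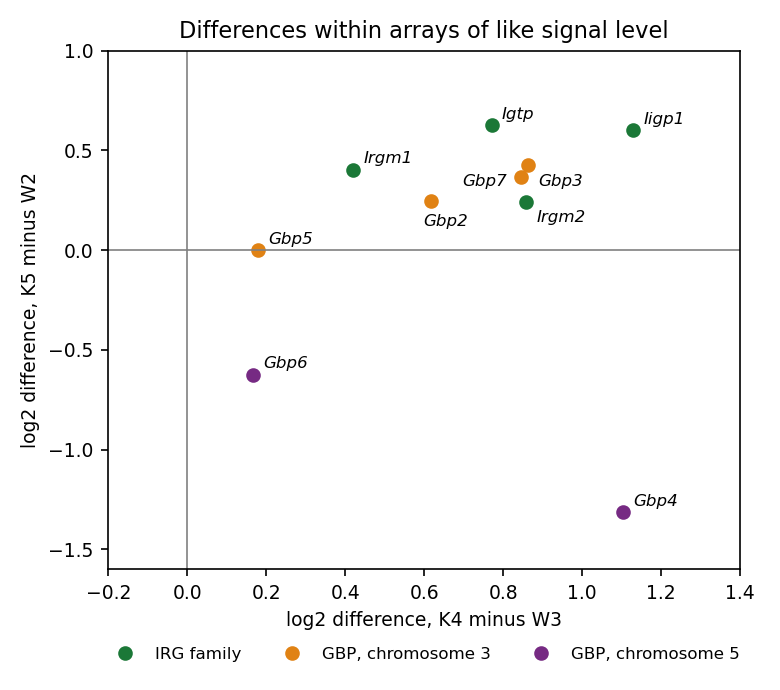
Each gene is placed by its log2 difference between the brighter arrays (K4 minus W3, horizontal axis) and between the dimmer arrays (K5 minus W2, vertical axis). All 4 IRG genes are positive on both axes, while Gbp4 and Gbp6 are positive between the brighter arrays and negative between the dimmer ones.

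Neighbouring GTPase genes outside the 10 were examined in the same windows, 1 Mb to each side on mm9. On chromosome 5 the 6 tested GBP genes (Gbp4, Gbp6, Gbp8, Gbp9, Gbp10 and Gbp11) were all lower on K5 than on W2, and 5 of the 6 were higher on K4 than on W3. Their median difference was -0.17, beside -0.058 for the 22 other genes of the window. Gbp11 had the largest difference of the 6. It read -1.46 on K4 and -3.55 on K5, against -0.85 on W2 and -0.93 on W3. Both its values labelled SR-A1-/- lay below both labelled wild type, at a difference of -1.61 ± 0.72. Gbp8 differed by -0.64 ± 0.52, Gbp9 by 0.22 ± 0.37 and Gbp10 by -0.09 ± 0.30. On chromosome 3 the 5 tested GBP genes, with Gbp2b at 0.59 ± 0.62 among them, had a median of 0.59, beside -0.11 for 7 other genes. That median is the value of Gbp2b, which was not above background on K5 or W2, and the 4 genes of the 10 in this window had a median of 0.52.

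The IRG clusters leaned the other way from the chromosome 5 GBPs. Beside Igtp and Irgm2 lies Gm12250 (Irgb10, which acts on bacterial membranes), at -1.59 and -1.40 on K4 and K5, against -2.37 and -2.29 on W2 and W3. All 3 GTPase genes of that window were higher without overlap, at a median of 0.70. Of the 44 other genes 4 were higher and 3 lower without overlap, at a median of 0.011. Around Irgm1 the effector gene Tgtp2 (Irgb6) read 2.65 and 1.55 on K4 and K5, against 0.55 and 1.05 on W2 and W3, a difference of 1.30 ± 0.47. Ifi47 (Irgd) differed by 0.77 ± 0.37, Gm5431 by 0.22 ± 0.29 and 9930111J21Rik1 by 0.02 ± 0.51. Of these 5 genes 4 were higher without overlap, beside 4 of 20 other genes. Beside Iigp1, Gm4951 read 0.97 and 0.44 on K4 and K5, against -0.74 and -1.23 on W2 and W3, a difference of 1.69 ± 0.36 (unadjusted p = 0.00526, limma adjusted p = 0.415). Its other probe differed by 0.08 ± 0.44, so Gm4951, like Iigp1, rested on which probe was read. In the window of Iigp1, 1 of the 2 tested GTPase genes was higher without overlap. Of the 24 other genes there, 7 were higher and 5 lower without overlap, at a median of 0.019.

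Over all 13 tested GTPase genes outside the 10, the median was 0.22, with 6 higher without overlap and 1 lower. An unadjusted p under 0.05 in limma was reached by 4, all higher (Gm4951, Gm12250, Tgtp2 and Gvin1). Of all genes, 16.1% were higher without overlap, 13.7% lower, and 3.84% higher at that unadjusted p. These shares stand beside the counts of each gene list below as well. The median level of the 13 genes was -1.46 on K4 and -1.40 on K5, against -0.85 on W2 and -1.23 on W3. The very large GTPase gene Gvin1 differed by 1.02 ± 0.38, and Irgq by -0.07 ± 0.33. Irgc1 and 9930111J21Rik2 were not well above background on any array. Members of these clusters resemble each other in sequence, with Tgtp2 and its copy Tgtp1 nearly identical, and whether a probe also caught a neighbour's transcript was not tested.

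Interferon-gamma itself was not detectable at this signal, since the probe for Ifng was not well above background on any of the 4 arrays. The chain from receptor to transcription factor was measured in 14 of 15 genes, with a median difference of 0.37, 6 genes higher without overlap and 3 lower. The receptor chains differed in sign, with Ifngr1 at 0.37 ± 0.31 and Ifngr2 at -0.37 ± 0.28. The kinase gene Jak1 read 3.44 and 3.58 on K4 and K5, against 2.83 and 2.57 on W2 and W3, a difference of 0.81 ± 0.29 (unadjusted p = 0.0375, limma adjusted p = 0.740). Jak2 differed by -0.14 ± 0.27, and by 0.11 ± 0.31 at its other probe.

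Among the transcription factors of the pathway, Irf8, a factor of macrophages and dendritic cells, read 1.17 and 1.47 on K4 and K5, against -0.09 and 0.70 on W2 and W3. Its difference of 1.01 ± 0.38 had an unadjusted p of 0.0462 and a limma adjusted p of 0.778. The other Irf8 probe differed by 0.95 ± 0.66, with overlapping groups. Irf1, the factor of the ISRE, differed by 0.36 ± 0.44 with overlapping groups. Batf2 differed by 0.55 ± 0.31, Irf9 by 0.44 ± 0.35, Stat2 by 0.36 ± 0.32 and the class I transactivator gene Nlrc5 by 0.48 ± 0.75. At their other probes Irf1 and Stat2 differed by 0.40 and 0.19, while Irf9 differed by -0.23 ± 0.29 and Nlrc5 by -0.12 ± 0.34. Without overlap, the other Irf1 probe was higher and the other Irf9 probe lower. The other Stat2 probe overlapped between groups, and the other Nlrc5 probe was not above background on K5 or W2. The inhibitors of the pathway differed in sign, and none had an unadjusted p under 0.05. Socs1, which blocks Jak kinases, read -0.16 and -0.83 on K4 and K5, against -0.07 and 0.11 on W2 and W3, at -0.52 ± 0.35. The phosphatase gene Ptpn2 differed by -0.40 ± 0.39 and Socs3 by 0.12 ± 0.62.

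**Figure D4:**
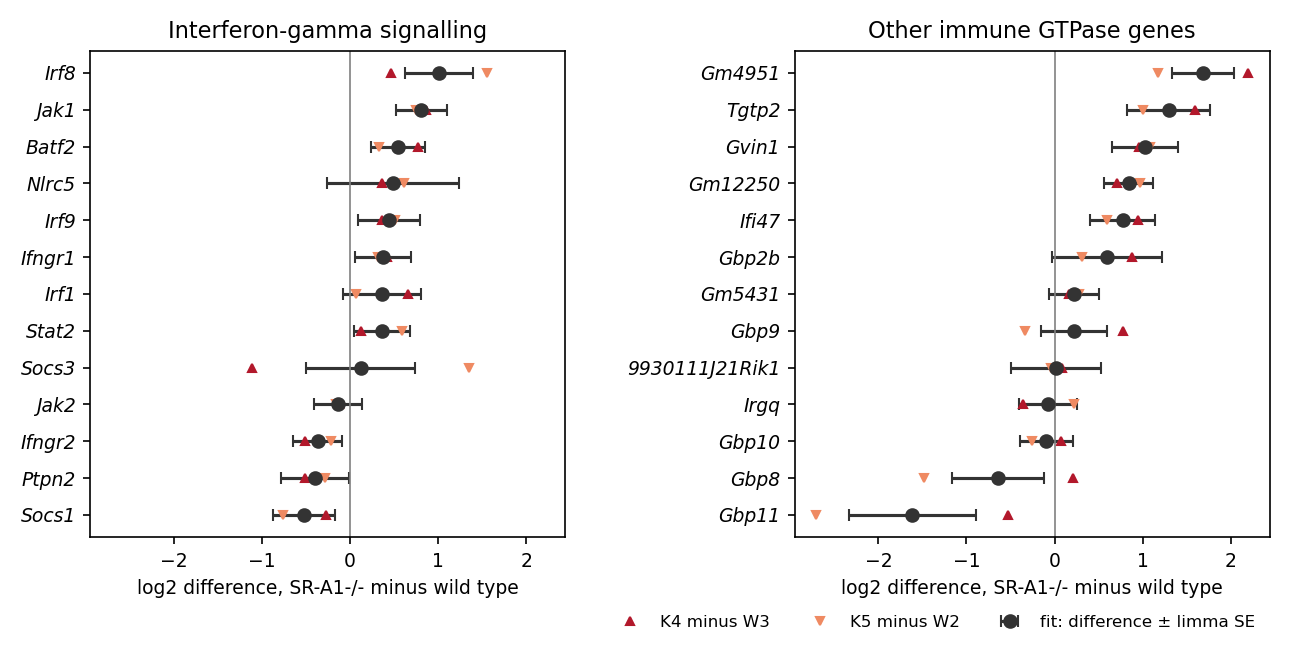
The log2 difference of the arrays labelled SR-A1-/- minus those labelled wild type is plotted with its limma standard error for 13 interferon-gamma signalling genes (left) and the tested immune GTPase genes outside the 10 (right). Triangles give the 2 differences between arrays of like signal level, K4 minus W3 and K5 minus W2, which point opposite ways for Socs3, Gbp8, Gbp9, Gbp10, Irgq and 9930111J21Rik1.

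Genes that drive interferon-gamma production gave a mixed picture. Of 11 such genes 7 were tested, with 4 higher without overlap and 1 lower. Their median was 0.75, the value of Il12b, which was not above background on W2 or W3. With Il12b at its lower bound the median was 0.090. Il18, a cytokine that calls forth interferon-gamma, read 1.01 and 0.69 on K4 and K5, against -0.58 and -0.56 on W2 and W3, at 1.42 ± 0.29 (limma adjusted p = 0.384). Its receptor gene Il18r1 differed by 2.0 ± 0.39, with W2 not above background, and the interleukin 12 receptor gene Il12rb1 by 0.94 ± 0.29. Eomes, Il12a, Il18rap and Stat4 did not pass the filter on dim probes.

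Other targets of interferon-gamma had larger differences than the GTPases in a few genes. Of 17 tested, 7 were higher without overlap and 0 lower, at a median of 0.46, and 6 had an unadjusted p under 0.05, all higher. Among all genes 16.1% were higher and 13.7% lower without overlap, and 3.84% were higher at that unadjusted p. Ciita, the switch of MHC class II genes, read 1.59 and 1.58 on K4 and K5, against -0.37 and -0.50 on W2 and W3. Its difference was 2.02 ± 0.27 (limma adjusted p = 0.217), with both pairs of like signal level near 2, at 2.09 and 1.95. The chemokine gene Cxcl10 differed by 3.15 ± 0.75, with W2 not above background, and the Fc receptor gene Fcgr1 by 1.87 ± 0.47. Of 19 tested genes known as type I interferon targets, 11 were higher without overlap and 0 lower, at a median of 0.82. Those with the smallest p in limma were Ifit3 at 2.76 ± 0.51, Oas2 at 1.27 ± 0.43 and Irf7 at 1.0 ± 0.36. In proteins that work with the GTPases, the median of 16 genes was 0.20, with 9 higher without overlap and 1 lower. Traf6, a ubiquitin ligase of vacuole marking, differed by 0.87 ± 0.32, the inflammasome protease gene Casp1 by 0.88 ± 0.45 and its pore-forming substrate gene Gsdmd by 0.76 ± 0.41.

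Markers of the cells that make or answer interferon-gamma were read beside these values, and none passed an adjusted p of 0.05 in limma. In bulk tissue, fewer cells of a type and less RNA per cell cannot be told apart. Of 19 T and NK cell markers 15 were tested, while Cd8a, Gzmb, Klrd1 and Ncr1 did not pass the filter. The tested markers had a median of 0.68, and without overlap 8 were higher and 0 lower, where 16.1% and 13.7% of all genes were. The T cell receptor kinase gene Zap70 read -1.40 and -1.25 on K4 and K5, against -2.91 and -3.18 on W2 and W3, at 1.72 ± 0.29. Il2rb differed by 1.29 ± 0.34 and Cd3g by 1.31 ± 0.36. Prf1 at -0.61 ± 0.46 and Cd4 at -0.09 ± 0.41 were negative, with overlapping groups, and Cd3e differed by 0.22 ± 0.43. The summed level of the 15 tested markers, on the log2 scale, was 2.44 on K4 and 2.62 on K5, against 2.32 on W2 and 1.97 on W3. Their part in the GTPase values was not tested.

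Macrophage markers had a median of 1.15 over 9 tested genes, with 4 higher without overlap and 1 lower. The complement gene C1qa read 3.1 and 3.01 on K4 and K5, against 1.22 and 1.41 on W2 and W3, at 1.74 ± 0.28. Csf1r differed by 1.18 ± 0.33 and Adgre1 by 1.82 ± 0.68. Mertk was lower without overlap, at -0.50 ± 0.33, and Itgam (-0.17 ± 0.55), Lyz2, Cd14 and Cd68 overlapped between groups. Their summed log2 level overlapped between groups, at 8.07 on K4 and 8.11 on K5, against 7.38 on W2 and 8.42 on W3. Within the pairs of like signal level the median macrophage marker differed by 0.038 between K4 and W3 and by 1.53 between K5 and W2. The GTPases had the reverse order, at 0.81 and 0.31 for the same pairs. Endothelial markers had a median of 0.53 over 8 genes, 4 higher and 1 lower without overlap, with Vwf at 1.28 ± 0.62, Emcn at 0.61 ± 0.32 and Tek at 0.55 ± 0.36, and on the other side Cdh5 at -0.33 ± 0.35, Kdr at -0.30 ± 0.28 and Egfl7 at -0.16 ± 0.45. For smooth muscle the median marker was at -0.50, and 5 of 7 were lower without overlap, led by Myocd at -0.93 ± 0.36, Cnn1 at -0.62 ± 0.27 and Smtn at -0.68 ± 0.30. B cell markers had a median of -0.27 over 5 genes, with Ms4a1 at -0.90 ± 0.42 and Cd79a at 0.52 ± 0.67. Fibroblast markers had a median of 0.086 over 6 genes, with Lum at 0.58 ± 0.29, Pdgfra at 0.50 ± 0.39 and Pi16 at -0.29 ± 0.37. The part of these cells in the GTPase values was not tested.

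**Figure D5:**
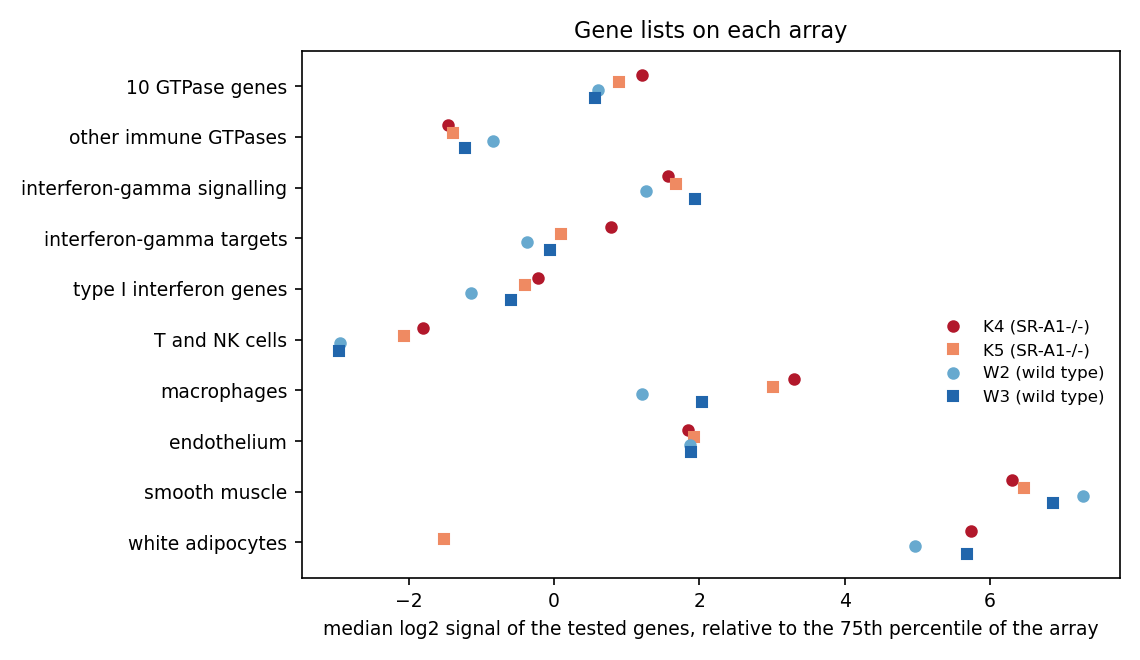
The median log2 signal of the tested genes of each list, relative to the 75th percentile of the array, is plotted for K4 and K5 (labelled SR-A1-/-) and for W2 and W3 (labelled wild type). The 10 GTPase genes, T and NK cell markers and macrophage markers sit higher on K4 and K5, and white adipocyte markers sit at -1.52 on K5.

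The mean profile of the 10 genes, each centred on its own mean over the 4 arrays, was 0.52 on K4 and -0.12 on K5, against -0.22 on W2 and -0.18 on W3. K4 alone was set off from the other arrays in this mean. Of the single genes Irgm2 lay nearest to it, with a root mean square difference of 0.095, and Gbp4 farthest, at 0.52. Outside the 10, the genes with the closest profile over the 4 arrays were Zfp82 at 0.030, Efcab7 at 0.032, C230052I12Rik at 0.033, St3gal1 at 0.034 and Rfc4 at 0.036, out of the 22497 genes tested. With 4 arrays nothing about shared function or control follows from a close profile.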

How the data were processed

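RNA of 4 aortic samples was hybridised to 4 arrays on 1 slide, read at 1 scan time, with 62976 spots each, of which 59305 were not controls. Per the file headers, the deposited processed signal is an intensity from Agilent Feature Extraction 12.0.3.1, background-subtracted and detrended but not scaled between arrays. The submitters' processing notes name version 10.7 of that program, and limma without a role. The mean spot signal and median local background were deposited as raw intensity, and the flags for outlier, saturated and above-background spots are 0 or 1 per the file headers. A deposited matrix of log2 values, whose 4 columns have almost the same distribution, served as an alternative.

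Outlier spots were left out (102 on K4, 83 on K5, 93 on W2 and 74 on W3), 0 spots were saturated, spots of a probe were averaged, and log2 signal was set relative to the array's 75th percentile over non-control probes. Probes called well above background on 2 or more arrays were tested, and the brightest stood for its gene, which gave 22497 genes, all 10 GTPases among them (14 of their 15 probes). R 4.3.3 and limma 3.58.1 (lmFit, then eBayes) gave two-sided tests, adjusted over all genes by Benjamini-Hochberg at a threshold of 0.05. All probes were fitted the same way. Differences are the arrays labelled SR-A1-/- minus those labelled wild type. The procedure was tested on simulated data for this comparison, where simulated log2 changes of 1 and 2 were recovered in 0% of genes, a change of 4 in 52.6% and a change of 8 in 86.2%. Changes of the size measured in the GTPases were therefore not recovered in the simulation.

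The 10 genes and the gene lists were chosen with earlier results of these data known. Named genes were the 10 with every probe, Msr1, the signalling and other GTPase lists in full, the 3 genes of smallest p in each other list, and the 5 genes of closest profile. Some genes that this rule names are counted in their lists but not reported here. Genes singled out beyond that rule were chosen after their values were seen. Other software was pandas 2.3.3 and matplotlib 3.10.9 under Python 3.11.15, and data.table (version 1.17.8) in R. Probe positions are on mm9 and promoters on GRCm38.p6, and the 2 builds were not combined. Alternatives tried were scaling by quantile, by median or by cyclic loess, normexp with offset 50, the filter dropped or required on 4 arrays, outliers kept, probe means in place of the brightest probe, array weights, robust eBayes, an intensity trend, the deposited log2 matrix, leaving out each array, thresholds of 0.1 and 0.2, and a block for signal level.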

Additional observations from a re-analysis of the deposited data

How the results depend on the processing

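None of the 10 GTPase genes passed an adjusted p of 0.05 in any alternative run at the level of genes, nor 0.1 or 0.2 with the values reported, and the lowest adjusted p of any was 0.244, for Iigp1 as the mean of its probes. Over all genes limma called 0, against 8 with quantile scaling, 7 with median scaling, 8 with cyclic loess, 22 with normexp, 8 with no filter, 5 with an intensity trend, 2 with array weights and 8 in the deposited values. Leaving out 1 array gave between 0 and 371, at 371 without W3, 260 without W2 and 0 without K4 or K5, the single array left then being taken to vary like the opposite group. The median GTPase difference ran from 0.23 without K4 to 0.74 without K5, and from 0.44 to 0.53 under the alternatives that kept all arrays. The count of GTPases higher without overlap was 7 with quantile scaling and 7 in the deposited values (17.7% and 17.2% of all genes), against 4 in the values reported (16.1%). It ran from 4 to 9 with 1 array left out, where the share of all genes ran from 30.8% to 36.2%. Signs turned with 1 array left out, and so with fewer samples, for Gbp4 (0.70 without K5, 0.30 without W2, range -0.91 to 0.70), Gbp5 (-0.079 without W3, range -0.079 to 0.26) and Gbp6 (0.21 without K5, range -0.67 to 0.21). The cause was not tested. No scaling moved the median of all genes past 0.1 in log2. No paired analysis was possible because the labels number the arrays 4 and 5 in one group and 2 and 3 in the other, and the block joined arrays by signal level alone. Signal over background limits, among others, Ifng, the untested Irgm1 probe, Msr1, Il18r1 and Cxcl10 on W2, Gbp2b on K5 and W2, Cd79a on W3 and Il12b on W2 and W3.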

Other observations

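Markers of fat and of skeletal muscle had larger median differences than the GTPases, in the opposite direction. White adipocyte markers had a median difference of -3.50 over 6 genes, with K5 far below the other 3 arrays. The fat protease gene Cfd read 7.89 on K4 and 0.45 on K5, against 7.76 on W2 and 8.11 on W3, and Cidec, a lipid droplet gene, read 6.14 and -2.40 on K4 and K5, against 5.43 and 6.14 on W2 and W3. Lep differed by 0.55 ± 0.34. Skeletal muscle markers had a median of -1.87 over 7 genes, with 4 lower and 1 higher without overlap. The fast myosin gene Myh4 read 5.06 and 5.58 on K4 and K5, against 8.36 and 6.84 on W2 and W3, and Mylpf differed by -1.87 ± 0.54, while another myosin gene, Myh1, differed by 3.63 ± 0.74. The part of these tissues in the GTPase values was not tested.

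The Irgm1 probe of transcript ENSMUST00000147151, outside every comparison, had processed signals of 5.87 on K4 and 8.90 on K5, against 3.34 on W2 and 2.13 on W3, and was well above background on K5 alone.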
